A study of Mus musculus with 2 samples.

Results

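C1q macrophages without Arg1 or Mmp12 are tumour macrophages that carry the mRNAs of complement C1q, and in which no molecule of Arg1 or Mmp12 mRNA was counted. They were selected cell by cell on UMI counts (unique molecular identifiers, each standing for 1 captured RNA molecule). A barcode needed 200 genes or more, no more than 20% of UMIs from mitochondrial genes, and at least 0.2% of its UMIs from the phagocyte genes Lyz2, Ctss and Cd68. It could hold at most 2 UMIs of Cd3d, Cd3e, Cd3g and Nkg7 together, and at most 1 of the tumour genes Igf2bp2, Igf2bp3 and Hmga2. Of C1qa, C1qb and C1qc it had to hold 3 or more UMIs, of the monocyte genes Ly6c2, Chil3 and Plac8 at most 1, of the division genes Mki67, Top2a, Ube2c and Birc5 at most 1, and of Arg1 and Mmp12 none. This selection kept 1447 of 16508 barcodes, 615 from the control library and 832 from the SHP099 library.

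The cells come from MC38 tumours, grown from a mouse colon carcinoma cell line injected into the right flank of C57BL/6 mice and dissociated whole with a tumour dissociation kit. Dosing started 5 days after injection, at a mean tumour size of 100 mm3, and went on for 14 days in groups of 6 mice. The SHP099 group received SHP099 hydrochloride, an allosteric inhibitor of the phosphatase SHP2, into the stomach each day at 5 mg/kg. The control group received PBS by the protocol text and is called untreated in the sample label. Each group gave 1 library made with the 10x Chromium 3′ method, and the sources used here do not say how many tumours went into each. No change of genotype is named for the mice or the tumour cells. With 1 library per group no difference has a replicate check, there is no test, and all 95% intervals cover counting error only.

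C1q is the recognition part of the classical complement pathway, and in tumours its main source is macrophages. Arg1 codes for arginase 1, which breaks down arginine, and Mmp12 for an elastase of macrophages, and both are common in tumour macrophages. SHP2, coded by Ptpn11, passes signals from growth factor and cytokine receptors, among them the CSF1 receptor of macrophages, to the RAS-ERK pathway, and also binds inhibitory receptors with ITIM motifs.

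The libraries held 8245 barcodes with 126218180 UMIs in control and 8263 barcodes with 112901642 UMIs in SHP099. They shared 100 barcode sequences, and 2 of these were among the selected cells. The selected cells had a median of 4256 UMIs and 1475 genes in control and of 3877.5 UMIs and 1425 genes in SHP099, and their median mitochondrial share was 2.22% and 3.52%. Their median count of C1q UMIs was 68 and 59. Among T cells of the same libraries, 0.644% in control and 1.15% in SHP099 reached 3 C1q UMIs, at median depths of 2517.5 and 2327.5 UMIs. Among tumour cells, which were deeper at medians of 29692.5 and 26091 UMIs, 18.7% and 24.3% did.

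The label was checked against marker genes. The C1q genes were part of the selection and check nothing. None of the 8 general macrophage markers was part of it, and in both libraries 8 of 8 lay at 10 CPM or more in the selected cells (CPM, the UMIs of a gene scaled to the summed UMIs of the cells compared). Csf1r, the receptor for CSF1, was at 348 CPM in control against 368 CPM in SHP099, and the membrane protein gene Ms4a7 was at 2020 and 1904 CPM. Of 3 genes of long-lived tissue macrophages, Timd4 was not counted in any selected cell of either library, and Lyve1 was found in 0.381% of control cells and in none of 710 SHP099 cells. Folr2, a folate receptor gene, was found in 4.57% and 6.34% of cells, against 0.299% and 0% of T cells. At full depth Lyve1 was found in 1.30% and 0.120% of selected cells and Folr2 in 8.78% and 11.1%. For such shares each cell was drawn down to 2000 UMIs, which left 525 control and 710 SHP099 cells and left out 90 and 122 shallower ones. A count of 0 allows a share of up to 0.571% of 525 control cells for Timd4 and of up to 0.423% of 710 SHP099 cells for Timd4 and Lyve1, which limits the cells with a UMI at that depth and not the cells that express the gene. Of the 8 conventional dendritic cell markers, Flt3 and Snx22 were at 0 in both libraries and 1 was at 10 CPM or more in each. The list summed to 28.2 and 23.7 CPM. Of the 7 neutrophil markers, Cxcr2, Retnlg and Ly6g were at 0 in both and 1 was at 10 CPM or more in each. Their sum was 26.6 and 33.4 CPM. Other lists were further from 0. The 8 monocyte markers, Lyz2 of the selection among them, summed to 5385 and 5805 CPM, with 5 and 6 at 10 CPM or more. The 6 plasmacytoid dendritic cell markers summed to 142 and 124 CPM and the 5 B cell markers to 86.4 and 87.6 CPM. In both of these lists 2 markers were at 10 CPM or more in each library.

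Markers of other cell types were not at the same level in the selected cells of both libraries, and where their molecules were made was not tested. The 6 fibroblast markers summed to 157 CPM in control against 422 CPM in SHP099, with 2 of them at 10 CPM or more in each library. The 4 genes H19, Tnfrsf12a, Dcn and Col3a1 of tumour and stromal cells stood at a median of 9.69% and 18.4% of their level in tumour cells. Dcn rose from 5.07% to 18.7% of that level, Col3a1 from 9.38% to 18.1% and H19 from 9.996% to 15.5%. Tnfrsf12a fell from 30.1% to 23.99%. The 7 MC38 tumour cell markers also fell, from 112 to 91.45 CPM, as did the 6 endothelial cell markers, from 41.12 to 21.98 CPM. The 5 red blood cell markers summed to 2.66 CPM in control against 541 CPM in SHP099, where 2 cells had 10 or more haemoglobin UMIs and the 10 highest cells held 96.9% of them. The part of RNA from other cells in the differences given here was tested only by subtracting a tumour cell profile, which is described with the other settings.

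Promoter sequences of a few genes come first, because the type I interferon and the hypoxia lists, described further on, share short motifs near their starts. The first set holds Ifit1, Ifit3 and Ifit3b, antiviral genes of the interferon response that lie in one cluster on chromosome 19. Capitals mark GAAANNGAAA on either strand, the core of the interferon-stimulated response element, which reads TTTCNNTTTC on the other strand. Each sequence is the 250 bases before the gene's start, read 5′ to 3′ on the gene's strand, from RefSeq on GRCm38.p6. Ifit1 is chr19:34640639-34640888, Ifit3 is chr19:34583279-34583528 and Ifit3b is chr19:34607707-34607956, all on the plus strand.
Ifit1: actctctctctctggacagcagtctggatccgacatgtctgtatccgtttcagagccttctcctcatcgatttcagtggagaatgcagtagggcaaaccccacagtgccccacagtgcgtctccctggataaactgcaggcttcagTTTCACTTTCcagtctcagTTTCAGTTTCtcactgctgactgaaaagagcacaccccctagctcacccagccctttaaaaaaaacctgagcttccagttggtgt
Ifit3: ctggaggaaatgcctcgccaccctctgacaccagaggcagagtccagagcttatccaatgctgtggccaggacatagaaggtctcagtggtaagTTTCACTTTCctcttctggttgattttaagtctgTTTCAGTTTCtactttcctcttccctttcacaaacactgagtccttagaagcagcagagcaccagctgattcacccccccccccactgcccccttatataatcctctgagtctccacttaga
Ifit3b: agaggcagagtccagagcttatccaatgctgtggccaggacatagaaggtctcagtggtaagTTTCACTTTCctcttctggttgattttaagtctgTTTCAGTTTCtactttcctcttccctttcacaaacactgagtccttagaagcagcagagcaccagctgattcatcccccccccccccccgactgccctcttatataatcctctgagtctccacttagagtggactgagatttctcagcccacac

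All of these stretches hold 2 matches. Over 268 bases of the full windows of 300 bases, set side by side without gaps, Ifit3 and Ifit3b were identical at 75% of positions. A run of c bases differs in length between them, so the bases after it were compared out of step and the value is a low estimate. The transcripts of these paralogs were not compared, and their separate values are uncertain where reads could fit both. Of 27025 genes with a promoter window of 300 bases, 3.99% held the motif. Among the type I interferon list it was held by 22 of 41 genes with a window (53.7%), and among the interferon gamma list by 10 of 17 (58.8%).

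The second set holds Slc2a1, the glucose transporter GLUT1, Bnip3, a mitophagy receptor, and Pgk1, a glycolytic enzyme. Capitals mark ACGTG on either strand, the core of the site bound by hypoxia-inducible factors. Slc2a1 is chr4:119108495-119108744 on the plus strand, Bnip3 is chr7:138909507-138909756 on the minus strand and Pgk1 is chrX:106186850-106187099 on the plus strand.
Slc2a1: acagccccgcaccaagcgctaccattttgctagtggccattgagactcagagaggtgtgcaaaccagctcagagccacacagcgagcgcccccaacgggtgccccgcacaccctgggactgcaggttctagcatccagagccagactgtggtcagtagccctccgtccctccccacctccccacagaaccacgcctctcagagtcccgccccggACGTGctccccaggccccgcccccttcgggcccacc
Bnip3: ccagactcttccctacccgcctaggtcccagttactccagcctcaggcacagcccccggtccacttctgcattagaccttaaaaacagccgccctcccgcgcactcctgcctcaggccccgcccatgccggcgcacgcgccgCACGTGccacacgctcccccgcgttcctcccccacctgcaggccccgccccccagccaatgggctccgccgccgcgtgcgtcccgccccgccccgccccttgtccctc
Pgk1: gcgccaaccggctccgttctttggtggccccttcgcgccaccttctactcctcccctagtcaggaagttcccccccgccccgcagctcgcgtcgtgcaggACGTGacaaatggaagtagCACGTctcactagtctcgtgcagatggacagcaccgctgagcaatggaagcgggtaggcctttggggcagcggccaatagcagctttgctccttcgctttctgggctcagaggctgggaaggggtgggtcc

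ACGTG was found in 21.8% of all windows, in 22 of 28 windows of the hypoxia and glycolysis list (78.6%) and in 3 of 41 of the type I interferon list. A match describes the letters and not a bound site, and these lists hold genes known for such control.

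Cells without Arg1 or Mmp12 made up a larger part of the C1q macrophages in the SHP099 library. C1q macrophages here are all cells that pass every other term of the selection, 1445 in control and 1333 in SHP099. In control 42.6% of them lacked Arg1 and Mmp12, with an exact binomial interval of 40.0 to 45.2%. In SHP099 the share was 62.4%, with an interval of 59.8 to 65.0%. The intervals do not overlap, and the ratio of the shares was 1.47 with a counting interval of 1.36 to 1.58. Cells with 3 or more Arg1 and Mmp12 UMIs, called Arg1/Mmp12 macrophages below, went the other way, from 34.7% to 19.1%.

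**Figure D1:**
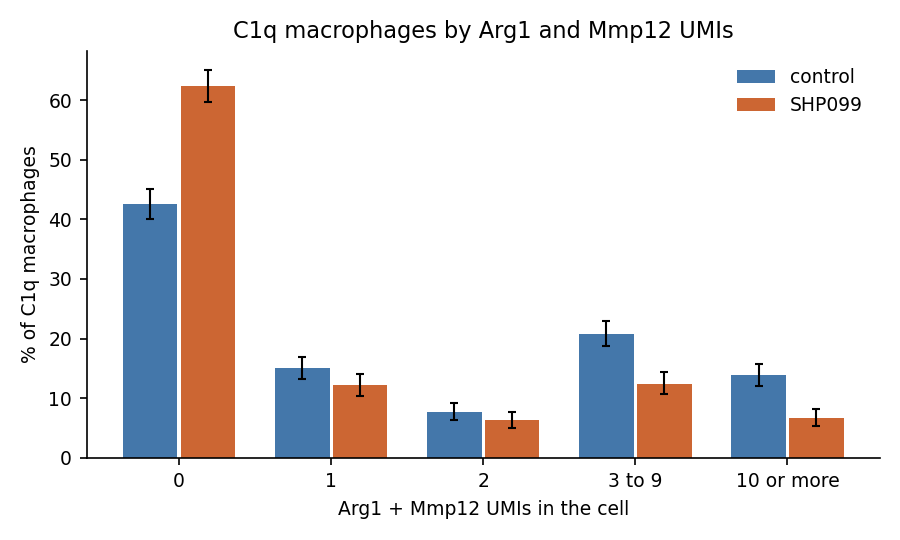
C1q macrophages of each library by their summed Arg1 and Mmp12 UMIs, as % of that library's C1q macrophages, with exact binomial 95% intervals. The bar at 0 is the selected population, 42.6% in control and 62.4% in SHP099, and each bar with 1 or more UMIs is lower in SHP099.

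Of all phagocytes, which are the cells that pass the terms up to the tumour genes, the selected cells were 22.8% in control and 30.1% in SHP099, which gives a ratio of 1.32 (1.21 to 1.44). Cells with few UMIs are more likely to show no Arg1 or Mmp12, and the Arg1/Mmp12 macrophages were deeper, with medians of 5509 and 5724 UMIs. When each cell was drawn down to 2000 UMIs, 54.0% and 71.3% of C1q macrophages lacked both genes. The ratio was then 1.32, with an interval of 1.25 to 1.40, so it was smaller than at full depth and above 1. Dividing C1q macrophages, which have 2 or more UMIs of the division genes, were 5.35% of phagocytes in control and 11.6% in SHP099. Monocytes, with 3 or more UMIs of Ly6c2, Chil3 and Plac8 and few of C1q, were 17.1% and 13.4%.

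Levels of some genes changed by steps across the limit on Arg1 and Mmp12. In control, cells with 0 UMIs numbered 615, those with 1 numbered 217 and those with 2 numbered 112. Spp1, which codes for osteopontin, was at 136 CPM in the cells with 0 UMIs, 228 CPM with 1, 397 CPM with 2 and 1650 CPM with 10 or more. Cd72, a receptor with an ITIM motif, ran the other way, at 930, 709, 603 and 248 CPM in those cells. The same order was seen in SHP099, where Spp1 went from 154 to 3986 CPM and Cd72 from 934 to 215 CPM. For Spp1 and Cd72 the limit cuts through a gradient, and the cells just outside it lie between its ends. Ccl12, a chemokine gene, did not keep this order and was highest just outside the limit. In control it was at 493 CPM with 0 UMIs, 629 with 1, 739 with 2 and 293 with 10 or more. In SHP099 the values were 1477, 1919, 1311 and 730 CPM. At the C1q limit there were few cells, 12 in control and 8 in SHP099 with 3 or 4 UMIs and 16 in each with 1 or 2.

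Type I interferon genes were higher in the selected cells of the SHP099 library. The list holds 52 genes measured at 10 CPM or more in 1 library at least, and 28 of them were 1.5-fold or more higher and 0 lower. Over all 6910 genes measured in the selected cells, 7.44% were 1.5-fold or more higher and 4.08% lower. The list's median log2 ratio of SHP099 over control was 0.64, against 0.04 over all genes, and 49 of its genes lay above 0. Ifit3b was at 16.4 CPM in control (exact Poisson interval 11.8 to 22.1) and 59.5 CPM in SHP099 (51.6 to 68.3), a log2 ratio of 1.83. Ifit3 was at 90.2 and 216 CPM, a log2 ratio of 1.25, and Ifit1 at 62.8 and 131 CPM, a log2 ratio of 1.06. These are the genes whose sequences are given above, and their intervals in the libraries do not overlap. Rsad2, the antiviral protein viperin, was at 91.0 and 200.5 CPM, and Samd9l, another interferon-induced gene, was among the 10 highest ratios at 1.33. The most abundant genes of the list moved less, with Ifi27l2a at 1923 and 2883 CPM and Bst2, which tethers virus particles to cells, at 1328 and 1963 CPM. Isg15 had a log2 ratio of 0.32 and Irf7 of 0.19.

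**Figure D2:**
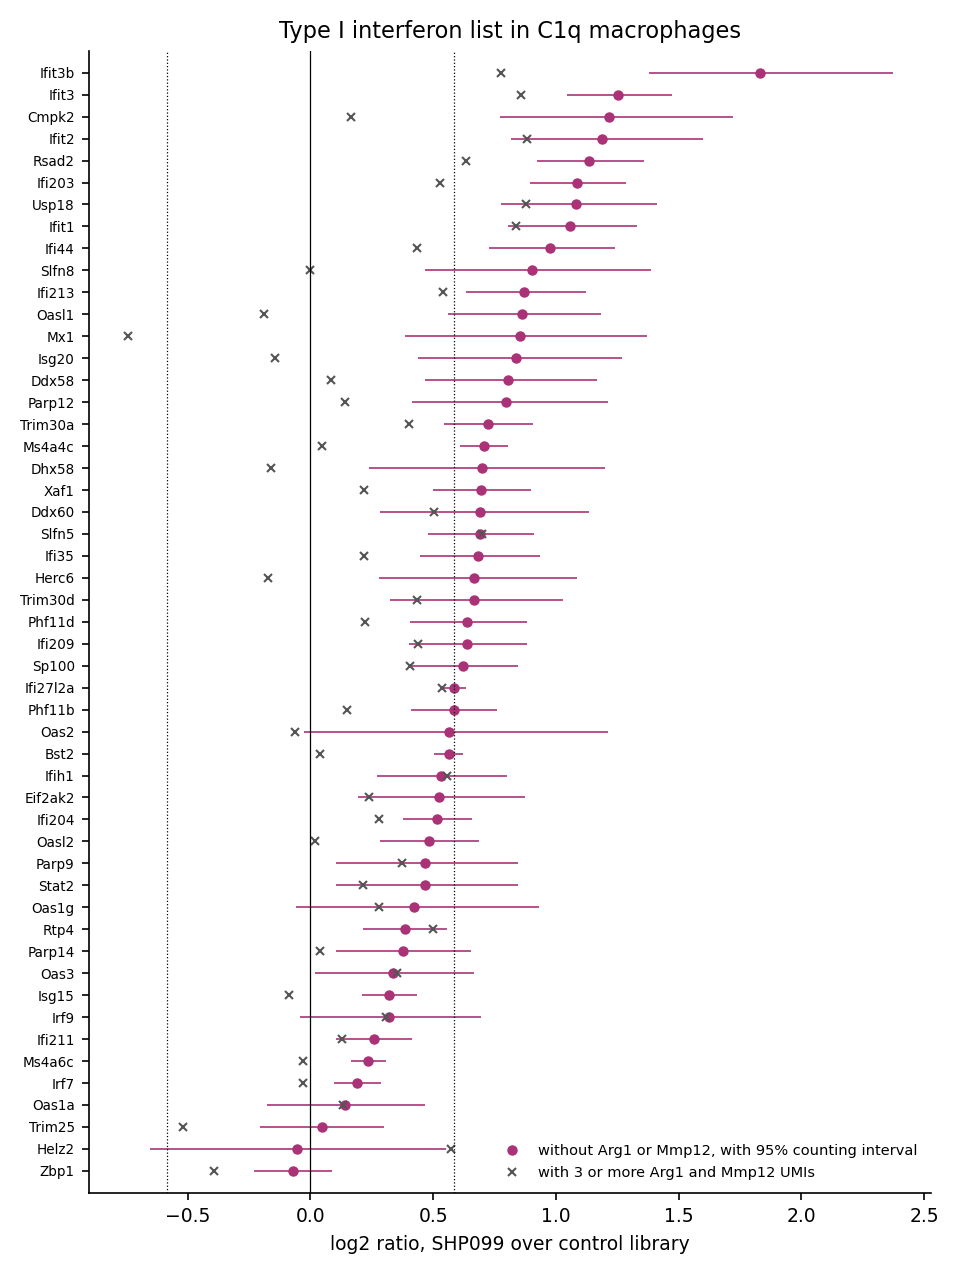
Log2 ratio of SHP099 over control for 51 of the 52 measured genes of the type I interferon list, in cells without Arg1 or Mmp12 (circles with 95% counting intervals) and in Arg1/Mmp12 macrophages (crosses). Dotted lines mark 1.5-fold; the circles run from -0.07 for Zbp1 to 1.83 for Ifit3b.

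More cells carried these mRNAs. At 2000 UMIs per cell, Ifit3 was found in 13.7% of control cells (10.9 to 17.0%) and 25.6% of SHP099 cells (22.5 to 29.0%), and at full depth in 21% and 38%. T cells, which express it as well, gave 5.09% and 9.66% at 2000 UMIs. The whole list held a median of 16 UMIs of each 2000 in control cells, with 6 to 43 from the 5th to the 95th percentile of cells, and of 26 UMIs in SHP099, with 9 to 52. The shift was seen at the low, middle and high percentiles, and in proportion it was smallest at the high one. In Arg1/Mmp12 macrophages the medians were 11 and 13 UMIs.

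In those Arg1/Mmp12 macrophages 7 of 51 measured genes of the list were 1.5-fold higher in SHP099 and 1 was lower, with a median log2 ratio of 0.22. Over all 6850 genes measured in them, 6.85% were 1.5-fold higher and 4.66% lower. In dividing C1q macrophages, with any count of Arg1 and Mmp12, 23 of 52 genes were higher and 0 lower, with a median of 0.55, against 10.4% higher and 7.11% lower of all 7367 genes measured in them. The list summed to 9322 CPM in control and 13353 CPM in SHP099 in the selected cells, to 15435 and 18883 CPM in monocytes, and to 6152 and 9291 CPM in T cells. Ifit3 was also higher in monocytes, at 111 and 197 CPM. The differences between these populations in the ratio have no replicate and were not tested.

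The interferon gamma list did not follow the type I list. Of 23 measured genes 0 were 1.5-fold higher and 6 lower in SHP099, with a median log2 ratio of -0.03. In Arg1/Mmp12 macrophages 0 of 23 were higher and 10 lower, with a median of -0.46. Cxcl9, a chemokine that draws CXCR3-bearing T cells, was at 755 CPM in control (722 to 789) and 427 CPM in SHP099 (406 to 450). Cd274, which codes for PD-L1, was at 115 and 66.2 CPM, and the cytokine signal inhibitor Socs1 at 46.1 and 25.8 CPM. All 3 were lower in SHP099. Cxcl10, a CXCR3 ligand that both interferon types induce, was at 404 and 490 CPM. At 2000 UMIs Cxcl9 was found in 46.7% of control and 29.7% of SHP099 cells, at full depth in 53.8% and 38%, and in 0.599% and 2.42% of T cells.

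Hypoxia and glycolysis genes were lower in the SHP099 library. Of 30 measured genes 15 were 1.5-fold or more lower and 0 higher, the median log2 ratio was -0.60, and 2 genes, Ddit4 and Hk1, lay above 0. With a tumour cell profile subtracted the median was -0.97. The glucose transporter Slc2a1 was at 66.2 CPM in control (56.8 to 76.8) and 30.8 CPM in SHP099 (25.2 to 37.3). Bnip3 was at 122 and 60.1 CPM, the lactate exporter Slc16a3 at 65.9 and 32.5 CPM, and the angiogenic factor Vegfa at 319 and 169 CPM. The intervals of these 4 genes do not overlap between the libraries, and Hif1a itself was at 180 and 117 CPM. The most abundant gene, the glycolytic enzyme Gapdh, was at 1609 and 1053 CPM. Per cell the list held a median of 14 UMIs of each 2000 in control and 8 in SHP099. In Arg1/Mmp12 macrophages the medians were 26 and 25.5 UMIs, and 2 of the 31 genes measured there were 1.5-fold lower.

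**Figure D3:**
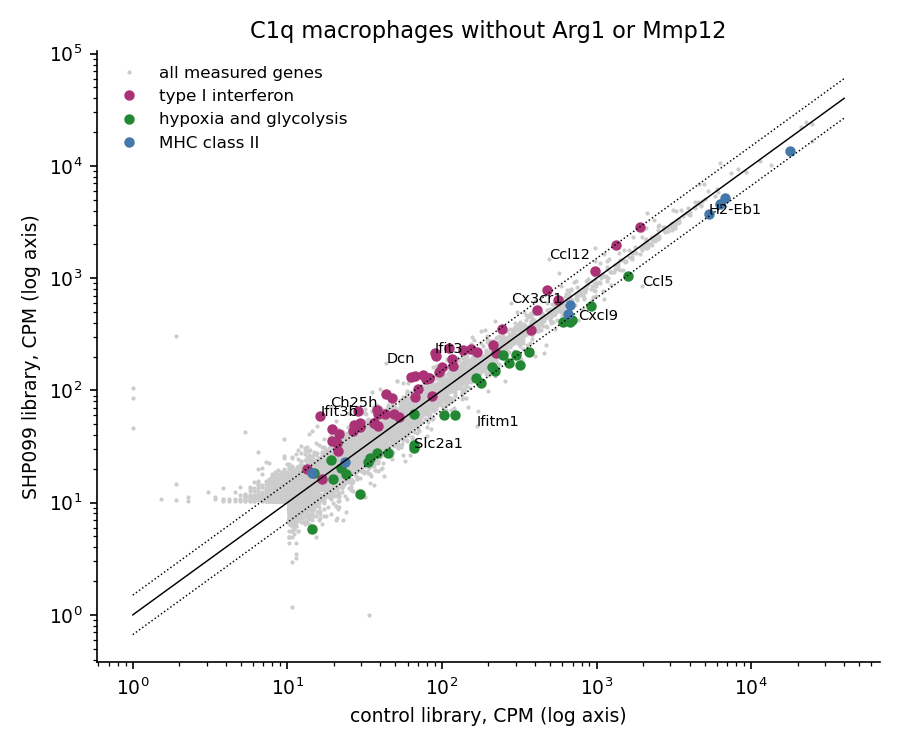
Level of each measured gene in C1q macrophages without Arg1 or Mmp12, control on the x axis and SHP099 on the y axis, in CPM on log axes; the solid line marks equal levels and the dotted lines 1.5-fold. Type I interferon genes lie mostly above the line and hypoxia, glycolysis and MHC class II genes mostly below it; values under 1 are drawn at 1.

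The CCR2 ligands Ccl12 and Ccl7 were higher and some other chemokines lower. Ccl12, a mouse CCR2 ligand and one of the genes by which these cells had been marked out, was at 493 CPM in control (467 to 521) and 1477 CPM in SHP099 (1437 to 1519), a log2 ratio of 1.58. Ccl7, another monocyte attractant, was at 573 and 1115 CPM, and Ccl2, the main one, at 380 and 493 CPM. Tumour cells had 200 and 260 CPM of Ccl7 and 1200 and 1312 CPM of Ccl2, and with a tumour cell profile subtracted the log2 ratio of Ccl7 went from 0.96 to 0.95 and that of Ccl2 from 0.38 to -0.06. Ccl12 does not set these cells apart by itself, since Arg1/Mmp12 macrophages had 388 CPM in control against 1056 CPM in SHP099. Ccl3 and Ccl4, inflammatory chemokines, were at 219 and 984 CPM in control and at 417 and 1847 CPM in SHP099. Ccl5, which attracts T cells and monocytes, was lower, at 1961 CPM in control (1907 to 2015) and 848 CPM in SHP099 (817 to 879). T cells had 3504 and 2837 CPM of Ccl5 and tumour cells 173 and 162 CPM. Ccl5 was also lower in Arg1/Mmp12 macrophages, at 1472 and 500 CPM, and in dividing C1q macrophages, at 714 and 351 CPM. Monocytes had 817 and 785 CPM. Ccl8 was at 1241 and 868 CPM. Of 17 measured chemokines 4 were 1.5-fold higher and 4 lower.

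Ccl12 was carried by more cells. At 2000 UMIs it was found in 31.0% of control cells (27.1 to 35.2%) and 61.0% of SHP099 cells (57.3 to 64.6%), and at full depth in 41.0% and 70.3%. The shares in T cells were 0.599% and 1.93%. Cells with Ccl12 had Ccl7 more often than cells without it, in 55.2% against 25.1% in control and in 58.2% against 38.3% in SHP099. Ccl2, Ccl7, Ccl12 and Ccl8 lie in that order on chromosome 11, from 82035571 to 82116799 on GRCm38, and Ccl8 alone of them was lower in SHP099.

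Several genes of resident-like macrophages were higher in SHP099. Of 26 measured genes 10 were 1.5-fold higher and 0 lower, with a median log2 ratio of 0.39, which was 0.17 among the genes at 50 CPM or more. In dividing C1q macrophages 9 of 27 were higher and 0 lower, with a median of 0.36. In Arg1/Mmp12 macrophages 4 of 25 were higher and 0 lower, with a median of 0.15. The fractalkine receptor gene Cx3cr1 was at 279 CPM in control (259 to 300) and 597 CPM in SHP099 (571 to 623), and at 2000 UMIs was found in 39.6% and 67.3% of cells, against 8.38% and 7.25% of T cells. At full depth the shares in selected cells were 54.0% and 78.5%. Other populations shared the rise of Cx3cr1 at 2000 UMIs. It went from 25.4% to 45.97% of Arg1/Mmp12 macrophages and from 11.8% to 21.2% of monocytes. The transcription factor gene Maf was at 114 and 224 CPM, and Fcrls, an Fc receptor-like gene of microglia and macrophages, at 91.7 and 197 CPM. All 3 were higher in SHP099, while classical macrophage genes stayed closer to equal. Mrc1, the mannose receptor, was at 80.7 and 85.6 CPM, Adgre1, a surface marker of mouse macrophages, at 258 and 265 CPM, and Trem2, a lipid-sensing receptor, at 597 and 459 CPM. The C1q genes stayed level, with log2 ratios from -0.05 to 0.06, though the selection had used them.

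MHC class II genes, which present peptides to CD4 T cells, were lower on average and unevenly among cells. Of 8 measured genes 0 passed 1.5-fold in either direction, and the median log2 ratio was -0.40. In Arg1/Mmp12 macrophages the median over 7 genes was also -0.40. H2-Eb1 was at 5348 CPM in control (5260 to 5437) and 3738 CPM in SHP099 (3674 to 3804), H2-Aa at 6335 and 4553 CPM, and the invariant chain Cd74 at 17928 and 13648 CPM. The per-cell spread shows where the difference lay. Of each 2000 UMIs the list took a median of 73 in control cells and 34 in SHP099 cells, while the 95th percentiles were 174 and 155. In Arg1/Mmp12 macrophages the medians were 22 and 8.5 UMIs. Cells with 0 to 9 class II UMIs were 7.24% of control (5.17 to 9.80%) and 26.9% of SHP099 (23.7 to 30.3%), and those with 100 or more were 32.6% and 20.8%. These ranges have no natural border, with 24 control and 78 SHP099 cells at 7 to 12 UMIs, and were set after the values were seen.

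Other genes differed along the class II ranges. In SHP099, the cells with 0 to 9 class II UMIs had 1753 CPM of Ccl8 and those with 100 or more had 127 CPM, while in control these cells had 1576 and 1087 CPM. Fcrls went from 392 to 48.4 CPM in SHP099 and from 112 to 73.4 CPM in control, and Maf from 302 to 120 CPM and from 129 to 61.4 CPM. Ccl5 ran the other way, from 379 to 1562 CPM in SHP099 and from 823 to 1976 CPM in control, and so did Ccr2, the receptor of monocytes, from 35.4 to 205 CPM in SHP099 and from 0 to 53.0 CPM in control. Ccl12 was at 1541 CPM in the 38 control cells with the fewest class II UMIs and at 367 CPM in those with the most, and at 1710 and 1269 CPM in SHP099. The type I interferon list was nearly level, from 13358 to 12359 CPM in SHP099. Median mitochondrial shares moved along the same ranges, from 4.08% to 2.49% in SHP099 and from 2.46% to 1.97% in control, and their part was not tested.

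**Figure D4:**
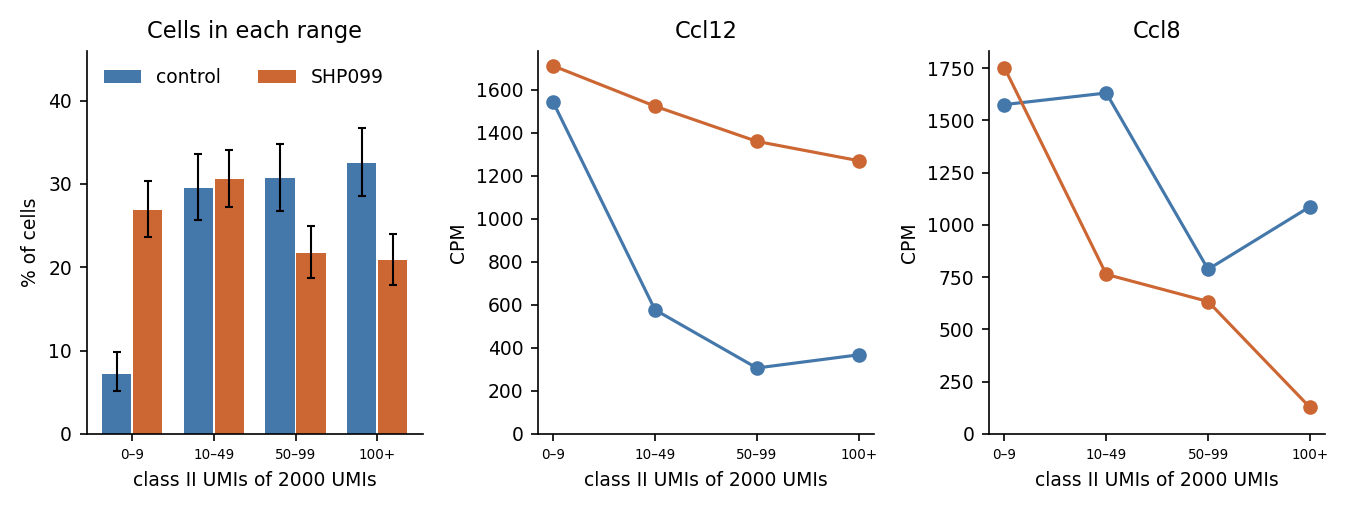
C1q macrophages without Arg1 or Mmp12 by MHC class II UMIs of 2000 UMIs per cell. The left panel gives the % of cells in each range with exact binomial 95% intervals (0 to 9 UMIs, 7.24% in control and 26.9% in SHP099), and the others the Ccl12 and Ccl8 levels in CPM (blue, control; orange, SHP099).

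The 10 largest ratios also held genes outside these lists. Ch25h, which makes the oxysterol 25-hydroxycholesterol, was at 19 CPM in control (14.1 to 25.1) and 70.9 CPM in SHP099 (62.3 to 80.5). At 2000 UMIs it was found in 4.19% and 9.44% of selected cells and in 0 of 334 and 207 T cells, and at full depth in 6.67% and 17.7%. Ch25h was also higher in Arg1/Mmp12 macrophages, at 20.02 and 54.04 CPM, and in dividing C1q macrophages, at 18.65 and 57.5 CPM. Gpr183, a receptor for a related oxysterol, was at 9.52 and 36.6 CPM, and of 17 measured genes of oxysterols and LXR targets 6 were 1.5-fold higher and 0 lower. Dusp6, a phosphatase that limits ERK and is induced by it, was at 51.4 and 121 CPM. Arg1/Mmp12 macrophages had 63.2 and 99.7 CPM of Dusp6 and dividing C1q macrophages 44.4 and 79.2 CPM, so it was higher in SHP099 there too. Of 14 measured genes of ERK feedback and ERK targets in the selected cells 4 were 1.5-fold higher and 0 lower. Their median log2 ratio of 0.27 changed sign in other settings. Ptpn11 was at 30.1 CPM in control (23.8 to 37.5) and 23.7 CPM in SHP099 (18.9 to 29.5), which overlap. Ccr2 was at 35.4 and 96.7 CPM, with 404 and 617 CPM in monocytes and 0.816 and 1.24 CPM in tumour cells. Arg1/Mmp12 macrophages had 41.8 and 76.6 CPM of Ccr2 and dividing C1q macrophages 30.2 and 78.8 CPM.

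Dcn and Fn1 stand among the largest ratios with levels that are higher in other cells. Dcn, a proteoglycan of fibroblasts, was at 43.8 and 177 CPM in the selected cells, at 863 and 946 CPM in tumour cells and at 220 and 282 CPM in T cells, and 10 cells held 74.8% of its UMIs in SHP099. Fn1, fibronectin, was at 90.6 and 203 CPM, against 672 and 805 CPM in tumour cells. When each cell counted alike, the log2 ratio of Dcn fell from 2.00 to 0.58 and that of Fn1 from 1.16 to 0.63. With a tumour cell profile subtracted, that of Dcn was 2.74. Whether these molecules were made by the macrophages was not tested.

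Among the 10 smallest ratios, Tgm2, a transglutaminase, was at 458 CPM in control (433 to 485) and 214 CPM in SHP099 (198 to 230). Slc7a11, the cystine importer, was at 55.6 and 26.7 CPM, the C-type lectin gene Clec4d at 57.5 and 23.4 CPM, and the cyclic AMP response gene Crem at 255 and 121 CPM. All 4 were lower by more than 2-fold in SHP099. They were also lower in Arg1/Mmp12 and in dividing C1q macrophages, with Tgm2 at 500 and 302 CPM in the former and 403 and 226 CPM in the latter. Cytip, which regulates integrin adhesion, had a log2 ratio of -1.38, against -0.69 in Arg1/Mmp12 and -0.38 in dividing C1q macrophages. That of Ifitm1 was -1.80. Ifitm1 was found at 2000 UMIs in 11.2% and 4.23% of selected cells, below the 15.9% and 11.6% of T cells. In Arg1/Mmp12 macrophages its log2 ratio was -1.93, from 148 to 38.6 CPM. The ferritin heavy chain gene Fth1, an iron store and one of the most abundant mRNAs, was at 24918 and 16682 CPM. Of 11 iron and haem genes 1 was 1.5-fold higher and 0 lower, while the median log2 ratio was -0.40 and 4 genes lay above 0. Of 13 NRF2 antioxidant targets 1 was higher and 3 lower, with a median of -0.33 and 4 genes above 0. Over all genes measured in the selected cells 7.44% were higher and 4.08% lower.

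The selected cells were then set beside the Arg1/Mmp12 macrophages of the same library. The selection was made on this contrast, so these values describe it and carry no test. Of 6588 genes measured, 3.76% were 1.5-fold or more higher in both libraries and 4.01% lower. Tmem176b and Tmem176a, a pair of membrane protein genes known from dendritic cells and macrophages, stood farthest apart among the genes named as higher in the selected cells. Tmem176b was at 295 CPM in control against 365 CPM in SHP099 in the selected cells, against 33.4 and 47.0 CPM in the Arg1/Mmp12 macrophages. Tmem176a was at 145 and 198 CPM against 14.0 and 20.6 CPM. The pair lies head to head on chromosome 6, and the annotated genes overlap from 48840919 to 48841496, over 578 bases, on opposite strands. The sources used here do not give the strand setting of the counting, so reads of that stretch may not be told apart. At 2000 UMIs Tmem176b was found in 34.7% and 44.2% of selected cells, in 4.71% and 6.85% of Arg1/Mmp12 macrophages, and in 1.20% and 0.483% of T cells. At full depth the selected cells gave 46% and 55.6%. Within the selected cells it was found in 53.4% of those with Tmem176a and 29.3% of those without in control, and in 64.0% and 37.0% in SHP099.

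MHC class II and interferon genes were higher in the selected cells than in the Arg1/Mmp12 macrophages. Of 8 class II genes 6 were 1.5-fold higher in both libraries, with median log2 ratios of 1.16 in control and 1.12 in SHP099. Of 52 type I interferon genes 20 were higher and 0 lower, with medians of 0.48 and 0.77. Dnase1l3, a secreted DNase, was at 57.5 and 53.1 CPM against 14.0 and 7.08 CPM, and Pou2f2, a transcription factor gene of B cells and myeloid cells, at 83.8 and 127 CPM against 30.2 and 39.9 CPM.

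Hypoxia, NRF2 and lipid genes were lower in the selected cells. Of 30 hypoxia and glycolysis genes 25 were 1.5-fold lower in both libraries and 0 higher, with median log2 ratios of -0.90 and -1.38. Of 13 NRF2 targets 8 were lower, of 21 lipid-handling genes 9 and of 17 matrix and protease genes 7. Spp1 was at 136 and 154 CPM against 1094 and 2062 CPM, while T cells, which are shallower, had 101 and 117 CPM and tumour cells 7.46 and 7.57 CPM. Hmox1, haem oxygenase 1, was at 105 and 78.8 CPM against 450 and 336 CPM. Cd36, a lipid scavenger receptor, was at 1.52 and 2.05 CPM against 36.2 and 73.3 CPM, and the neutrophil attractant Cxcl3 at 0.381 and 1.47 CPM against 34.4 and 56.0 CPM. The last 2 genes were close to 0 in the selected cells.

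**Figure D5:**
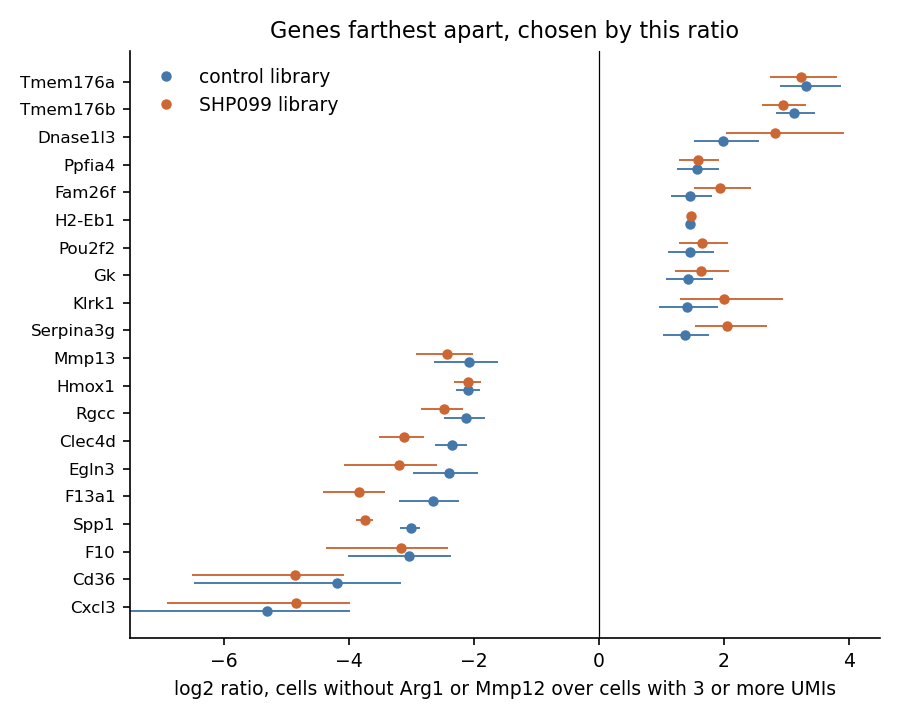
Log2 ratio of C1q macrophages without Arg1 or Mmp12 over Arg1/Mmp12 macrophages within each library, with 95% counting intervals, for the 10 genes with the highest and the 10 with the lowest ratio. Tmem176a reaches 3.32 in control and 3.23 in SHP099 and Cxcl3 -5.31 and -4.84; the interval of Cxcl3 in control runs past the axis.

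Beside monocytes, which the selection also keeps apart, 11.6% of 6591 genes were 1.5-fold higher in both libraries and 8.63% lower. Of 23 resident-like genes 20 were higher and 0 lower, with median log2 ratios of 1.62 and 1.97, and of 28 lysosome genes 18 were higher and 0 lower. Ccl8 was at 1241 and 868 CPM in the selected cells against 14.9 and 11 CPM in monocytes, and Vcam1, an adhesion molecule, at 132 and 171 CPM against 8.17 and 10.1 CPM. Cadm1, another adhesion molecule, was at 75.8 and 62.4 CPM and was not counted in monocytes. These are genes of the macrophage side. Hp, haptoglobin, was at 0.381 CPM and 0 in the selected cells and at 116 and 148 CPM in monocytes. Type I interferon genes were higher in monocytes, with 17 of 53 lower in the selected cells, 1 higher and medians of -0.55 and -0.34.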

How the data were processed

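The deposited files are filtered matrices of UMI counts per gene and barcode, 1 control and 1 SHP099 library. Per the submitters' processing notes the authors made them with Cell Ranger on the mouse build mm10 (GRCm38), and the file headers name version 3.1.0 of the output. The counts were used as they stand. Members and gene lists were chosen with earlier results of these data known.

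Cells were selected by the UMI limits in the text, and UMIs were summed over the cells of each population per library and divided by the population's total to give CPM. Log2 ratios used a prior of 0.5 CPM, and their intervals, exact binomial for the split of UMIs between libraries, leave it out. Genes count as measured at 10 CPM or more in 1 library at least, and the median counting interval of a gene's log2 ratio was 0.44 on either side. Genes of the selection were left out of list summaries. The genes named are the 10 highest and 10 lowest ratios among those at 50 CPM or more, found in 10% or more of cells and keeping their direction when each cell counts alike, with the 3 highest, 3 lowest and 3 most abundant of each list and a panel of macrophage genes. Not named were predicted genes, Xist, genes on the Y chromosome, and those of mitochondria, ribosomal proteins, haemoglobin and immunoglobulins. Of 577 listed genes and the markers, 5 symbols did not match the files. A few other genes, such as Cxcl13 and those of the class II ranges, were named after their values were seen. Some genes that the rule names are not reported here.

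Doublets were not removed, since the selection keeps them. Scrublet called 3.31% and 2.67% of the barcodes that passed the gene and mitochondrial limits, against 6.36% and 6.32% expected, and 10 selected cells in each library. Removing them was 1 of the other settings tried. All 675 genes looked up had a position in GENCODE M21, which is on GRCm38. The computation was tested on simulated data. Tools were Python 3.11.15, numpy 2.4.6, scipy 1.17.1, pandas 2.3.3, scanpy 1.11.5, anndata 0.12.19 and matplotlib 3.10.9.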

Additional observations from a re-analysis of the deposited data

Results flagged for a closer look

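In 41 of 2133 genes at 50 CPM or more in both populations, the log2 ratio of SHP099 over control had opposite signs in the cells without Arg1 or Mmp12 and in the Arg1/Mmp12 macrophages, with both counting intervals clear of 0. In 4 of them the ratio also passed 1.5-fold in 1 of the populations. Each population of a library gives 1 value, and the difference between populations was not tested. Hspa1a, an inducible heat shock protein gene, had a log2 ratio of 0.77 in the cells without Arg1 or Mmp12, from 134 to 229 CPM, and of -0.88 in the Arg1/Mmp12 macrophages, from 82.2 to 44.4 CPM. The glycolytic enzyme gene Pgk1 had a ratio of -0.65, from 273 to 174 CPM, and of 0.18 in the Arg1/Mmp12 macrophages, from 670 to 760 CPM. Aldoa, which codes for aldolase A of the same pathway, had a ratio of -0.73, from 698 to 422 CPM, and of 0.20 there, from 1266 to 1449 CPM. Elmo1, an engulfment adaptor gene, had a ratio of 0.40, from 56.0 to 74.2 CPM, and of -0.65 there, from 52.7 to 33.5 CPM.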

How the results depend on the processing

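With 1 library per group the design has no replicate, and depth limits single genes to a median counting interval of 0.44 on either side on the log2 scale. No paired analysis was possible because each group has 1 library. The ratio of the shares among phagocytes was 1.17, and among C1q macrophages 1.30, when 1 Arg1 or Mmp12 UMI was allowed, and the latter was 1.32 when the selection was made at 2000 UMIs. Counts of genes past 1.5-fold moved with the floor and the prior. They were 316 higher and 170 lower with a prior of 5 CPM, 112 and 66 at 50 CPM or more, and 2815 and 1665 with no floor, and 430 were lower when each cell counted alike. At 2000 UMIs 443 genes were higher than in Arg1/Mmp12 macrophages in both libraries.

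The median log2 ratio of the resident-like list was 0.17 at 50 CPM or more, that of the chemokines -0.18 when each cell counted alike, and that of class II -0.34 at 2000 UMIs. Subtracting a tumour cell profile, a setting chosen after seeing the data, gave 820 lower genes, a chemokine median of -0.16 and a hypoxia median of -0.97. Signs turned for the ERK list, to -0.0556 at 50 CPM or more and -0.0294 with the profile subtracted, for alternative activation, to -0.0207 with no floor, and for cytokines, to -0.00511 at 2000 UMIs. Leaving out cells with any division gene UMI, also chosen afterwards, left the counts and medians of the comparisons within their limits. The causes of these moves were not tested, beyond the number of genes that each floor admits. Of the 43 followed gene ratios 4 turned sign in 1 of the 12 settings tried for single genes, and 0 of these were past 1.5-fold. They were Ccl2, to -0.06 with the profile subtracted, Mrc1, to -0.30 when each cell counted alike, and Adgre1 and Cd72, to -0.0032 and -0.03 when centred on the median of all genes. More of the 43 ratios moved past their limits. These were 12 with the selection made at 2000 UMIs and 10 when each cell counted alike. Another 2 settings moved 7, with 1 Arg1 or Mmp12 UMI allowed, and 6, without cells with any division gene UMI.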

Other observations

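Genes of the matrix differed in both directions in the cells without Arg1 or Mmp12. Thbs1, the matricellular protein thrombospondin 1, was at 470 CPM in control against 251 CPM in SHP099, and the proteases Adam8 and Mmp19 were at 79.9 and 20.6 CPM in control and at 39.0 and 7.03 CPM in SHP099. Of 17 measured matrix and protease genes 4 were 1.5-fold higher and 3 lower. The immediate-early genes Klf2 and Btg2 were higher, at 156 and 190 CPM in control and 302 and 344 CPM in SHP099, and of 25 immediate-early and stress genes 5 were higher and 0 lower. Fcgr4, an activating Fc receptor, was at 822 and 528 CPM.

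The B cell chemokine gene Cxcl13 was counted in 1.14% of the control cells, at 33.9 CPM, and in none of the SHP099 cells. Pecam1, an adhesion molecule with ITIM motifs, was at 36.5 and 14.4 CPM. The share of selected cells with 1 division gene UMI was 17.9% in control and 16.3% in SHP099. The selection had removed all cells with 2 or more, so this share cannot compare division between the libraries. Of 23 measured replication genes 5 were 1.5-fold higher and 0 lower in SHP099, against 7.44% higher and 4.08% lower of all 6910 genes.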
